A study of Homo sapiens with 2 samples.

Results

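The genes of the unfolded protein response and the EDEM family were described in the chromatin of CAMA-1, an established breast adenocarcinoma cell line of luminal epithelial type. The members were 10 genes given by name (EDEM1, EDEM2, EDEM3, XBP1, HSPA5, ATF4, ATF6, ERN1, DDIT3 and DNAJB9), out of 20033 protein-coding genes of GENCODE release 44 on hg38. All peaks that overlapped their gene bodies or the 20 kb on either side were taken, and a TSS peak was any peak within 1 kb of an annotated transcription start site (TSS) of the gene. These peaks merged into 170 regions, out of 279030 regions genome-wide. The set was selected on the fold enrichment of TSS peaks in these same replicates, in which EDEM3 was already known to rank near the top, so the TSS values are given as descriptions, without a test.

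Open chromatin was profiled by ATAC-seq, which uses the Tn5 transposase to cut and tag accessible DNA. There were 2 biological replicates, each from 50000 cells of adherent cultures in serum-containing medium, and they form a single condition. The labels name no treatment and no agent that stresses the endoplasmic reticulum (ER). Both replicates come from 1 cell line and the spread between them (SD, n = 2) is the only measure of error.

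The unfolded protein response is the program by which cells adjust the folding capacity of the ER. The sensors in the ER membrane are IRE1 (encoded by ERN1), ATF6 and PERK. IRE1 splices the mRNA of XBP1 into the form that encodes an active transcription factor, ATF6 is cut in the Golgi to free its transcription factor domain, and PERK phosphorylates a translation initiation factor, which favours translation of ATF4. Known targets include HSPA5, the ER chaperone BiP, its co-chaperone DNAJB9, and the EDEM genes, whose products trim mannose from misfolded glycoproteins and mark them for ER-associated degradation. DDIT3, induced by ATF4, encodes CHOP, a factor tied to cell death under lasting stress. In breast, XBP1 is best known as a gene of estrogen receptor-positive luminal tumours.

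Peaks were called separately, with 245736 in replicate 1 and 259745 in replicate 2. Strength is given as the deposited fold enrichment, the ratio of the peak's height plus 1 to a genome-wide background plus 1. Height is the number of stacked reads at the highest base, and the background was 3.35 reads in replicate 1 and 3.52 in replicate 2. A TSS peak was present in both replicates for 79.3% of all protein-coding genes, and its median fold enrichment was 51.1 in replicate 1 and 52.6 in replicate 2. The labelled cell type was checked with marker lists. All 10 luminal epithelial markers had a TSS peak in both replicates with a median fold of 86.6. Of these, 7 lay above the median of all genes with a TSS peak. GATA3, TFF1 and ESR1 lay below it, with means of 49.1, 33.1 and 31.9. Of 7 fibroblast and endothelial markers, 6 had a TSS peak at a median of 19.4, and PECAM1 had none. COL1A1 and CDH5 lay above the median of all genes, with means of 70.3 and 60.9, and the rest below. Some genes of both lists thus went against their list.

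All 10 genes had a TSS peak in both replicates, against 79.3% of all protein-coding genes. The median of their mean fold enrichments was 98.0, which is 1.86 times the median of all genes with a TSS peak, and 9 of the 10 lay above that median, as do 50.0% of all such genes by definition. EDEM3, DNAJB9, EDEM1 and XBP1 were at or above the 90th percentile in both replicates, a position held by 9.14% of the genes with a TSS peak in both. Since the list was chosen with EDEM3 in view, nothing is read from this share.

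EDEM3 had the strongest TSS peak of the 10, with a fold enrichment of 333 in replicate 1 and 319.5 in replicate 2. DNAJB9 followed with 149 and 148, then EDEM1 with 133 and 137, XBP1 with 118 and 123, and HSPA5 with 111 and 105. The lower group was made up of EDEM2 with 87.0 and 88.7, DDIT3 with 77.5 and 81.2, ATF4 with 75.7 and 77.2, ERN1 with 66.0 and 73.4, and ATF6 with 43.0 and 34.9. The order was the same in both replicates, and for none of the 9 pairs of neighbours in this order did the replicate values overlap. The counting intervals of the heights did overlap for 6 of these 9 pairs in replicate 1 and for 7 in replicate 2. The neighbours set apart by counting in both replicates were EDEM3 from DNAJB9, and ERN1 from ATF6.

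**Figure D1:**
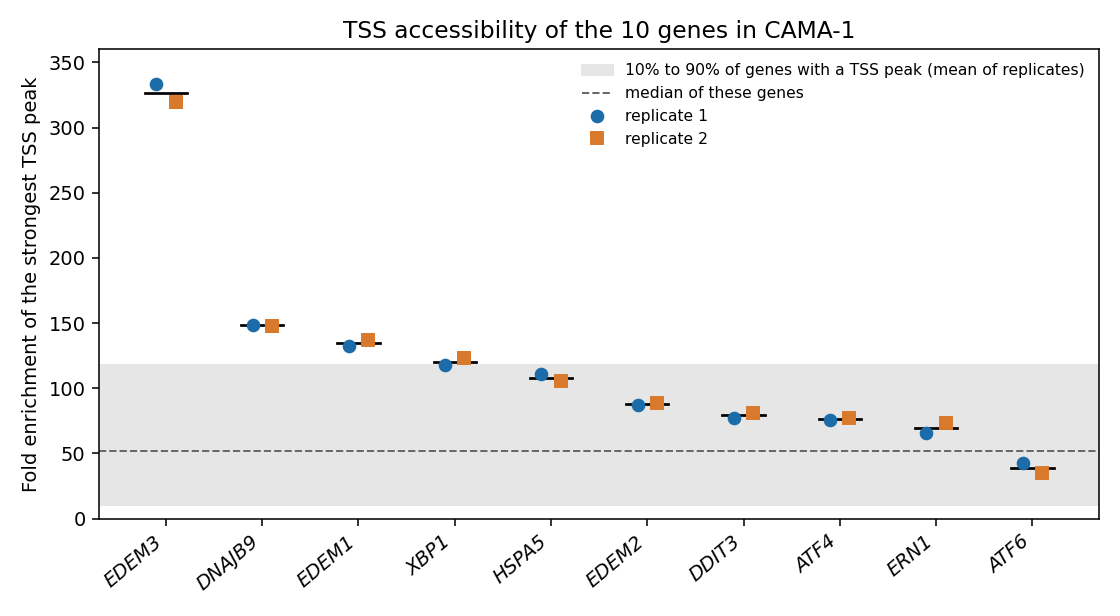
Fold enrichment of the strongest TSS peak (vertical axis, linear) for each of the 10 genes, with a blue circle for replicate 1, an orange square for replicate 2 and a black bar for their mean. The dashed line is the median of all protein-coding genes with a TSS peak and the grey band spans their 10% to 90% quantiles. EDEM3 at 333 and 319.5 stands far above the band and ATF6 at 43.0 and 34.9 is the only gene below the line.

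The distance of 1 kb decided which peaks counted as TSS peaks. The region just inside it was at XBP1, 786 bp from a TSS, with 6.90 and 5.97, and the one just outside was also at XBP1, at 1150 bp, with 17.3 and 18.1.

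The replicates differed little at these genes, apart from ATF6. The value of replicate 2 divided by that of replicate 1 ran from 0.812 at ATF6 to 1.11 at ERN1 with a median of 1.02, and it was above 1 for 6 of the 10 genes. Over all genes with a TSS peak in both, the median of this ratio was 1.03 and its 10% to 90% range was 0.884 to 1.19. ATF6 lay below that range and the other members lay within it.

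The EDEM family was compared first. EDEM2 is known to start the trimming of mannose on misfolded glycoproteins, and EDEM1 and EDEM3 continue it. The stretches upstream of their TSSs are shown because the EDEM3 peak is the strongest of the set and because the EDEM promoters differ in base composition. They lie between −250 bp and the first exon in GRCh38.p14 (RefSeq), are written 5′ to 3′ on the strand of the gene, and carry CCAAT boxes on either strand in capitals. EDEM1 is read from the forward strand at chr3:5187457-5187645, EDEM2 from the reverse strand at chr20:35147337-35147586, and EDEM3 from the reverse strand at chr1:184754908-184755108.
EDEM1: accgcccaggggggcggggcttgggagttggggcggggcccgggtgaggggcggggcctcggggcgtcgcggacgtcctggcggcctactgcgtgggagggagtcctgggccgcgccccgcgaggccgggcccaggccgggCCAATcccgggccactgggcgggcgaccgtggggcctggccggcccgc
EDEM2: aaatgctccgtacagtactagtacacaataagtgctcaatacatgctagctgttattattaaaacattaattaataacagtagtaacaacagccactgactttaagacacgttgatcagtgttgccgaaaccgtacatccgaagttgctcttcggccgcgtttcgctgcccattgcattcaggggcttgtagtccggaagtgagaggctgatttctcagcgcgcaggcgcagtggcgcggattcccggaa
EDEM3: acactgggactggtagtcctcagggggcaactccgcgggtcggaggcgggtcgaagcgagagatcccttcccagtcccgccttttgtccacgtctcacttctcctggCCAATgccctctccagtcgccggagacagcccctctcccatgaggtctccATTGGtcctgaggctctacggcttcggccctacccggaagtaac

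All 3 stretches lay under the TSS peak of their gene in both replicates. The EDEM1 stretch of 189 bases held 83.1% G and C and 24 CpG dinucleotides, the EDEM3 stretch of 201 bases held 63.2% and 13, and the EDEM2 stretch of 250 bases held 47.2% and 16. EDEM3 had CCAAT boxes from −143 to −139 and, on the other strand, from −93 to −89, EDEM1 had one from −109 to −105, and EDEM2 had none. A CCAAT box was present in 34.6% of the 35116 RefSeq promoters of 300 bases.

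EDEM3 (ENSG00000116406.20, chromosome 1, 184690237 to 184754907, reverse strand) had its TSS peak at chr1:184754126-184755887 in replicate 1 and chr1:184754123-184755807 in replicate 2. The peak reached from −1029 to 732 bp around the canonical TSS in replicate 1 and covered 11 of the 16 annotated TSSs of the gene in both replicates. Its height was 1448 reads (exact Poisson 95% interval 1374 to 1525) in replicate 1 and 1444 (1370.5 to 1520.45) in replicate 2. It ranked 2 among all protein-coding genes in each replicate. The peak was 1762 and 1685 bp wide, which placed its width at the percentiles 83.5 and 81.6, well below the percentile of its strength, 99.99. No other annotated gene has a TSS under this peak.

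EDEM1 (ENSG00000134109.11, chromosome 3, 5187646 to 5219958, forward strand) had a wider TSS peak of lower height. It measured 2156 bp and 2459 bp and covered 6 of the 7 annotated TSSs. Its height was 576 reads (529.9 to 625) in replicate 1 and 620 (572 to 671) in replicate 2. The TSSs of the lncRNAs ENSG00000233912, on the opposite strand at −378 bp, and ENSG00000268509, at 591 bp, lie under the same peak, so its reads cannot be split among these genes. EDEM2 (ENSG00000088298.13, chromosome 20, 35115364 to 35147336, reverse strand) had a peak of 1189 and 1205 bp over both of its TSSs. Its heights were 377 reads (339.9 to 417) and 400 (362 to 441), the lowest of the family.

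The TSS peak of EDEM3 was 2.51 times that of EDEM1 in replicate 1 and 2.33 times in replicate 2, a mean of 2.42 ± 0.130 (SD, n = 2). Against EDEM2 the ratios were 3.83 and 3.60, a mean of 3.72 ± 0.163 (SD, n = 2). EDEM1 exceeded EDEM2 by 1.53 and 1.55 times, or 1.54 ± 0.0157 (SD, n = 2). Since the set was selected on these folds, the ratios are descriptions. When each gene was divided by the median TSS fold of the coding genes within 5 Mb, EDEM3 was 1.52 ± 0.0481 times EDEM1 and 2.20 ± 0.0374 times EDEM2 (SD, n = 2).

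The second value bears on how the first is read, because the neighbourhood of EDEM3 is itself high. The 40 coding genes within 5 Mb of EDEM3 that had a TSS peak in both replicates had a median fold of 91.1 in replicate 1 and 91.4 in replicate 2, 1.74 times the median of all genes. EDEM3 was the strongest of them, at 3.58 ± 0.116 times the local median (SD, n = 2). Around EDEM1 and EDEM2 the local medians were 1.10 and 1.06 times that of all genes. The background of the deposited fold enrichment is a single value for the genome and does not follow the local amount of DNA. The copy number of these segments was not analysed here and its part in the ratios was not tested.

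**Figure D2:**
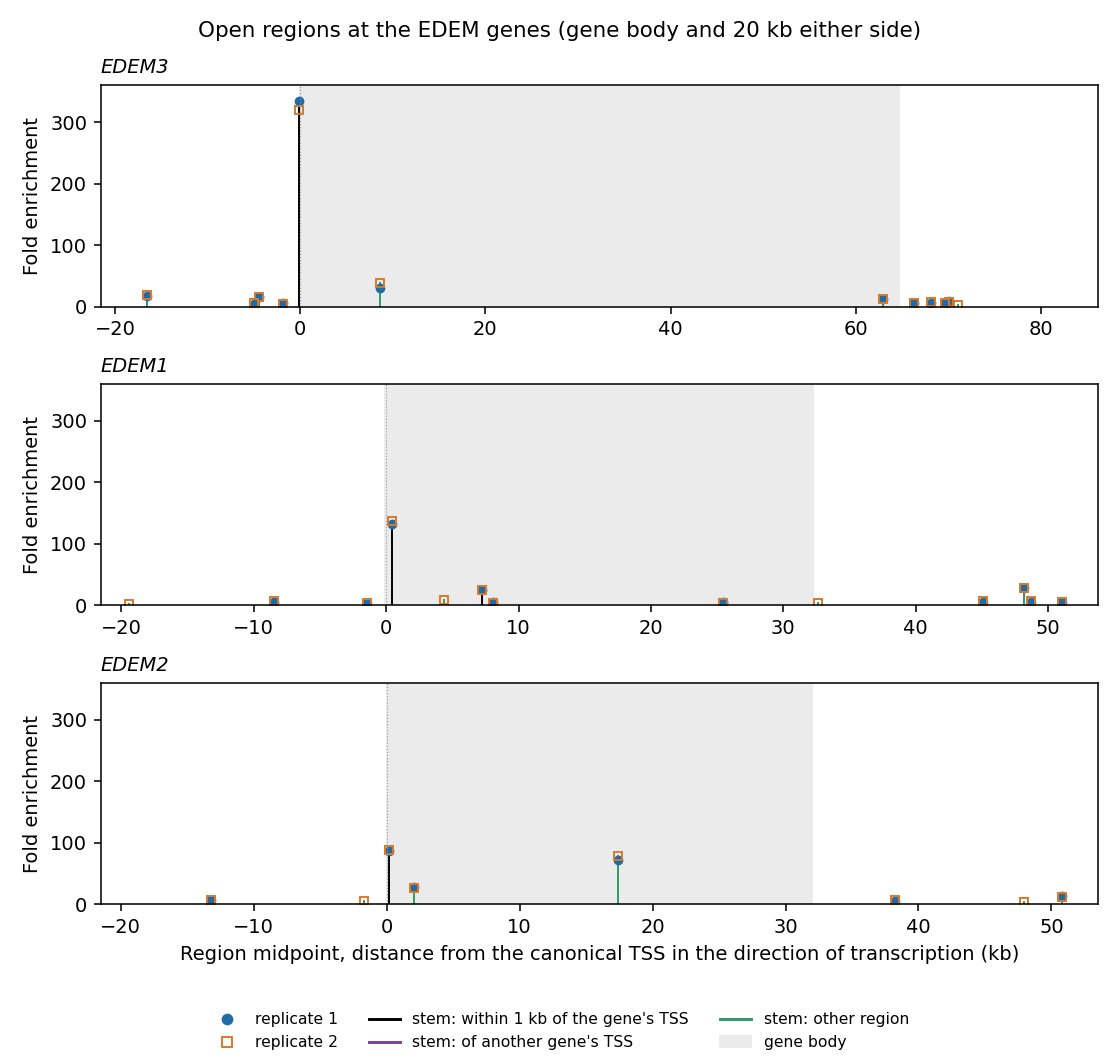
Fold enrichment of every open region at EDEM3, EDEM1 and EDEM2 (vertical axis, one linear scale) against the distance of its midpoint from the canonical TSS in kb, with transcription to the right, the gene body in grey and a separate horizontal scale for each gene. Blue circles are replicate 1 and orange squares replicate 2, and the stem is black within 1 kb of the gene's own TSS. EDEM3 has 1 strong region, at its TSS, while EDEM2 has a region in intron 7 at 72.7 and 79.2 that is close to its TSS peak.

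Away from the TSS the EDEM loci looked different from each other. At EDEM3, 11 regions had a peak in both replicates and 10 of them were more than 1 kb from any TSS. The strongest of these, chr1:184745774-184746769, reached 30.1 in replicate 1 and 37.8 in replicate 2. It lies 8587 bp into the gene, in intron 2 of the canonical transcript and over an exon of another transcript. A region at 62935 bp, in the 3′ UTR part of exon 20 of 20, had values of 12.0 and 12.2. Upstream of the gene, regions at −4470 bp and −16578 bp reached 15.0 and 15.5, and 17.3 and 18.1. The TSS peak of EDEM3 was 9.61 times its strongest distal region. Over the 15422 coding genes for which this ratio could be formed the median was 1.27, and EDEM3 lay at the percentile 96.6. The ratio contains the TSS fold on which the set was selected, so nothing is read from this percentile.

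EDEM1 had 10 regions in both replicates. One at 7222 bp, in intron 1 next to a further annotated TSS, had a fold of 24.6 and 25.4. The strongest distal region, at 48166 bp and thus beyond the 3′ end, had 28.3 and 27.6, which left the TSS peak 4.83 times higher. EDEM2 had only 6 regions, but the one in intron 7 at chr20:35129593-35130263 had 72.7 and 79.2, and the TSS peak was just 1.16 times as strong. This intronic region is 12386 bp from the nearest annotated TSS of any gene. A weaker region of EDEM2 in intron 2, at 2051 bp, had 28.1 and 27.2.

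The sensors among the 10 genes, ERN1 and ATF6, had the weakest TSS peaks. The gene of the sensor PERK, EIF2AK3, is no member and had 128 and 129, and it is named here after its values were seen. At ERN1 (ENSG00000178607.17, chromosome 17, 64039080 to 64130819, reverse strand) the strongest TSS peak had a fold of 66.0 in replicate 1 and 73.4 in replicate 2, at the percentiles 64.1 and 67.9. The gene with 20 kb on either side spans 132 kb, and this locus held 26 regions in both replicates. A second TSS peak stood 47840 bp downstream in intron 2 with 52.2 and 61.0, over another annotated TSS of ERN1. The strongest distal region lay beyond the 3′ end at 93417 bp, with 67.4 and 76.5, and slightly exceeded the main TSS peak, whose ratio to it was 0.969. Regions in intron 12 at 73505 bp, with 45.8 and 46.9, and in intron 1 at 22080 bp, with 27.4 and 32.3, added to the open sites inside the gene. The lncRNA ENSG00000289957 starts at −224 bp on the opposite strand, under the main peak.

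ATF6 (ENSG00000118217.7, chromosome 1, 161766298 to 161977574, forward strand) was the only gene below the median of all genes. Its strongest peak within 1 kb, at 43.0 and 34.9, did not cover a TSS of ATF6 but lay 663 and 683 bp upstream of the nearest one, over an exon of the divergent lncRNA ATF6-DT. The peak that covered 10 of its 11 annotated TSSs had a fold of 25.8 in replicate 1 and 24.8 in replicate 2. The TSS of ATF6-DT, on the opposite strand at −93 bp, lies under this same peak, so its reads cannot be split between these genes. A further region at −2459 bp had 52.0 and 44.0. Upstream accessibility was thus higher than that over the start sites themselves. The gene with 20 kb on either side spans 251 kb, and this locus held 28 regions in both replicates. The strongest distal region, in intron 14 at 118944 bp (chr1:161885009-161885519), had 58.7 and 61.5, so the TSS peak was 0.649 times as strong. A region at 207940 bp, inside the gene but beyond its canonical transcript, had 47.4 and 37.4. Others in intron 14 at 139131 bp and in intron 15 at 170635 bp had 35.4 and 36.9, and 26.7 and 27.4. The local median around ATF6 was 1.45 times that of all genes, and ATF6 reached 0.505 ± 0.0786 (SD, n = 2) of it.

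XBP1, the factor downstream of IRE1, and HSPA5, a classical target of ATF6 and XBP1, were the only members whose promoters held an exact ER stress response element (ERSE), CCAAT and CCACG separated by 9 bases. This element is bound by the factor NF-Y together with ATF6 or XBP1. Upstream stretches of both promoters and of DNAJB9 are shown for comparison, with CCAAT boxes and both parts of the ERSE in capitals. They are read from chr22:28800598-28800819 (reverse strand) for XBP1, chr9:125241383-125241593 (reverse strand) for HSPA5 and chr7:108569751-108569866 (forward strand) for DNAJB9.
XBP1: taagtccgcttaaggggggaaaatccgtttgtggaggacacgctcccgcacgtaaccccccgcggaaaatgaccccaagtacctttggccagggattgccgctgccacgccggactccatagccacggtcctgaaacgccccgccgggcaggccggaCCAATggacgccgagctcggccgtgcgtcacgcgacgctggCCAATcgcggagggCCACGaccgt
HSPA5: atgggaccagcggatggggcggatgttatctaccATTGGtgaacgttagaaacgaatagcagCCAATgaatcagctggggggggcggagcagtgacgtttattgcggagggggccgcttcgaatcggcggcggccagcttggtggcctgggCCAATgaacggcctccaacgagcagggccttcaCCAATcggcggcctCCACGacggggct
DNAJB9: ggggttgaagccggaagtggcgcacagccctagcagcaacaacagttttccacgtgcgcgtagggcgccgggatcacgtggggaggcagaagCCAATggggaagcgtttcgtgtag

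The element of XBP1 runs from −52 to −34 bp from the TSS and that of HSPA5 from −66 to −48 bp, both on the strand of the gene and both under the TSS peak in each replicate. With the element as a whole in capitals and its flanks in lower case, the copies at chr22:28800598-28800626 and chr9:125241386-125241414 read as follows.
XBP1 element: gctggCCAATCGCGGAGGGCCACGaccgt
HSPA5 element: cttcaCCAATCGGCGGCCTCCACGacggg

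An ERSE of these letters was found, on either strand, in 27 of the 35116 RefSeq promoters of 300 bases (0.0769%) and in 29 of the 20033 windows of 1001 bp around canonical TSSs (0.145%). The shorter form ERSE-II, ATTGG and CCACG separated by 1 base, the core TGACGTGG of the unfolded protein response element and the cAMP response element TGACGTCA had no match in the promoters or the TSS windows of the 10 genes. Their shares in all promoters were 0.0541%, 0.729% and 1.85%. The C/EBP-ATF response element, TGATG and AA separated by 1 base, had a match only in the TSS window of DDIT3 and occurred in 7.47% of all windows. CCAAT boxes, which are also the first part of each ERSE, were present in the promoters of 7 of the 10 genes, against 34.6% of all promoters. EDEM2, ATF6 and ATF4 had none there. In the wider TSS windows, 9 of the 10 genes had a CCAAT box, against 63.8% of all windows. Such matches describe letters in a window and not binding.

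At XBP1 (ENSG00000100219.17, chromosome 22, 28794555 to 28800597, reverse strand) the main TSS peak had a fold of 118 and 123 and heights of 510 and 556 reads. It lay next to another of 45.6 and 41.1 at −1629 bp, 751 bp from the nearest TSS of XBP1 and over a TSS of the lncRNA ENSG00000226471. The gene is 6.04 kb long. With 20 kb on either side its locus spans 46.0 kb and held 19 regions in both replicates. That is 4.13 per 10 kb, the highest density of the 10 loci and the percentile 97.5 among coding genes, whose median was 1.16. Of the 19 regions, 4 lay at TSSs of XBP1, 4 at TSSs of other genes and 11 more than 1 kb from any TSS. One region of the surroundings was as strong as the promoter. This region, at −13131 bp (chr22:28812998-28814403), had 130.0 and 122 and lies 511 bp from the TSS of the lncRNA ENSG00000272858. One at −18556 bp, over a further TSS of ENSG00000226471, had 92.3 and 96.4. This lncRNA also has a start site at −114 bp on the opposite strand, under the XBP1 promoter peak. Beyond the 3′ end, regions at 7404 bp and 16399 bp had 42.3 and 36.7, and 56.6 and 66.6. The region at 7404 bp was the widest in the locus with 3079 bp.

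ATF4 and DDIT3 carry the PERK branch. At ATF4 (ENSG00000128272.18, chromosome 22, 39519695 to 39522683, forward strand) a peak of 2286 and 2235 bp with a fold of 75.7 and 77.2 covered all 9 annotated TSSs. The region that follows (chr22:39522007-39523887) starts inside the gene and is centred at 2385 bp, just past the end of the gene. It was stronger, with 85.8 and 88.5, so that the ratio of TSS peak to distal region was 0.877. Regions at 4383 bp and 7595 bp had 31.1 and 30.5, and 42.1 and 46.7, and with them the open chromatin continued to the neighbour RPS19BP1. At DDIT3 (ENSG00000175197.13, chromosome 12, 57516588 to 57521737, reverse strand) the strongest TSS peak had 77.5 and 81.2 and a second, centred at −2596 bp over an upstream TSS, had 56.4 and 57.9. Both peaks also lie at TSSs of MBD6, which starts at −196 bp on the opposite strand, and the first covers the TSS of the overlapping coding gene ENSG00000285133. The reads of DDIT3 and these genes cannot be told apart. Apart from the TSS peaks, the region inside DDIT3 at 3327 bp had 26.2 and 27.2.

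HSPA5 and DNAJB9, the chaperones, had TSS peaks well above their strongest distal regions. The number of shared regions per 10 kb of locus was at the percentiles 60.9 and 48.3 among coding genes. HSPA5 (ENSG00000044574.9, chromosome 9, 125234853 to 125241382, reverse strand) had a fold of 111 and 105 and heights of 481 and 476 reads over all 5 of its annotated TSSs. Of its 7 regions, all were called in both replicates. The strongest distal region, at −2097 bp, had 14.5 and 17.0, which left the TSS peak 6.86 times as strong. A region at 6091 bp in the UTR part of exon 8 had 12.9 and 14.2. The lncRNA HSPA5-DT starts on the opposite strand at −320 bp, under the HSPA5 TSS peak in both replicates, so the reads of this peak cannot be split between these genes. DNAJB9 (ENSG00000128590.5, chromosome 7, 108569867 to 108574850, forward strand) had the second strongest TSS peak of the set with 149 and 148. This peak also covers the start sites of THAP5 at −124 bp and PNPLA8 at −208 bp, both coding genes on the opposite strand, so its strength cannot be assigned to DNAJB9 alone. No other region lay within its gene body, and the strongest distal region, at 23085 bp, had 27.6 and 32.1, which left the TSS peak 4.97 times as strong.

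**Figure D3:**
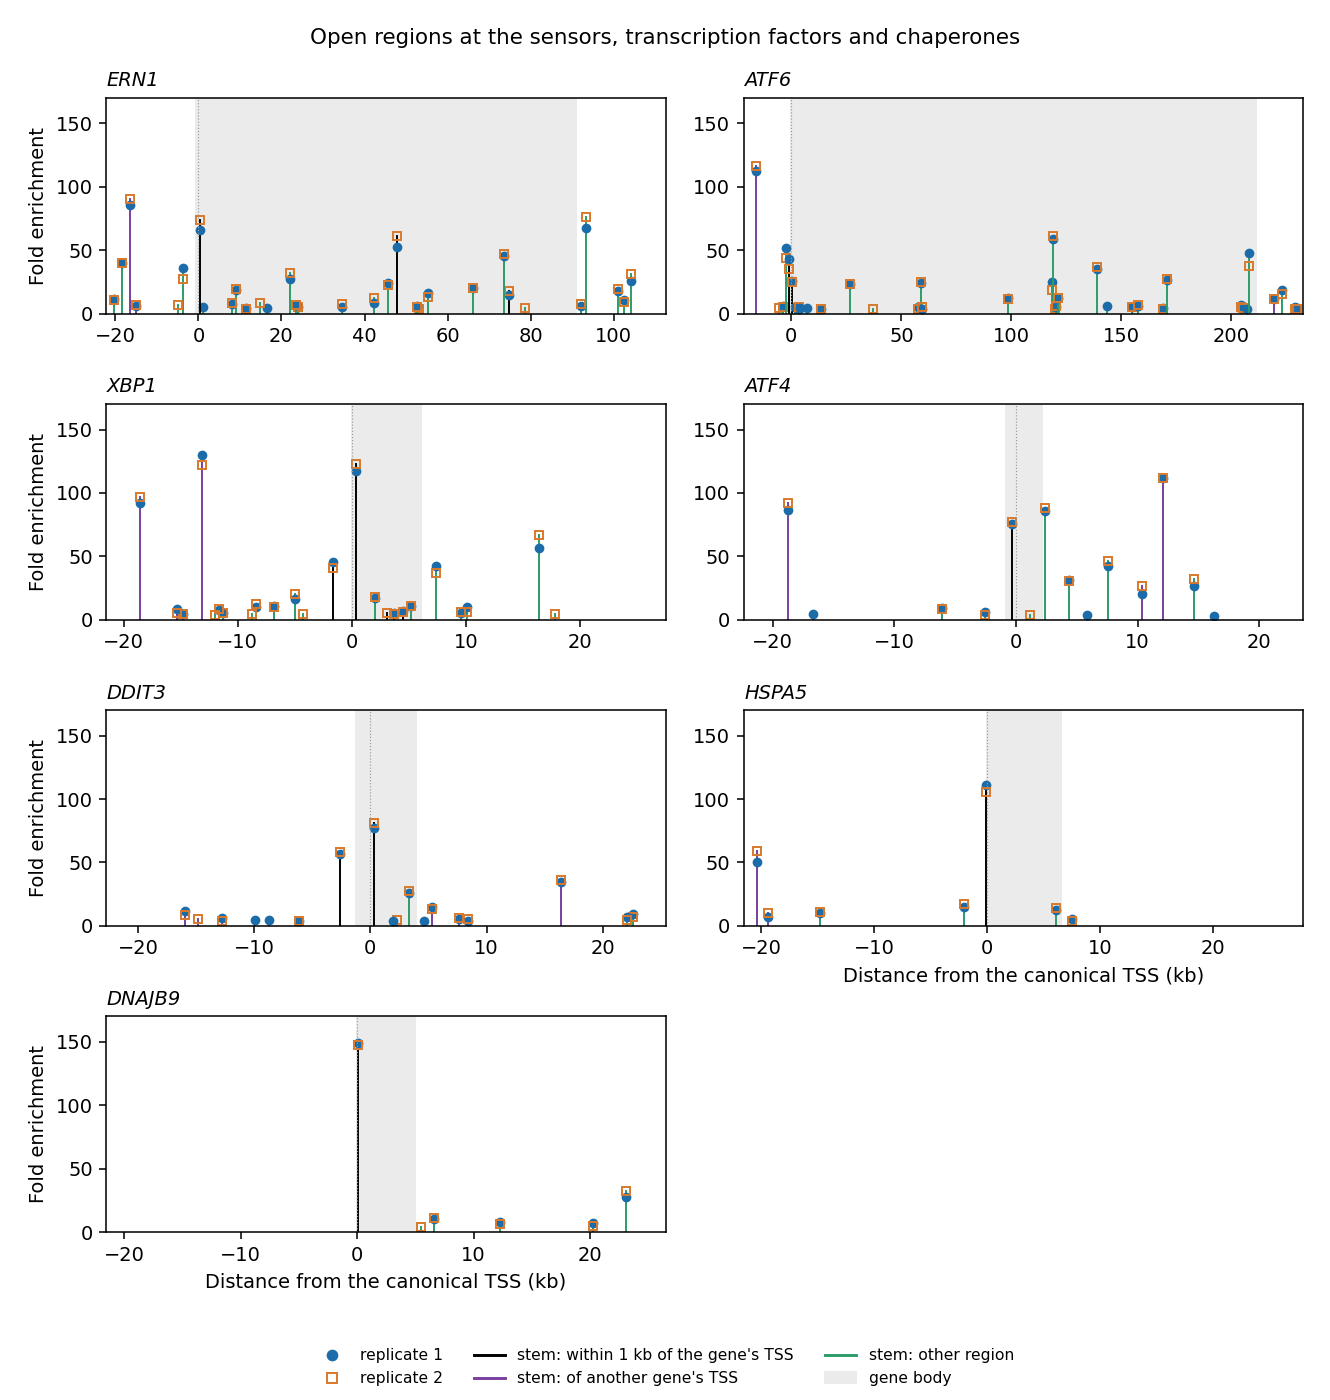
Fold enrichment of every open region at the other 7 genes (vertical axis, linear) against the distance of its midpoint from the canonical TSS in kb, with transcription to the right, the gene body in grey and a separate horizontal scale for each gene. Symbols are as in the plot of the EDEM loci, and purple stems mark regions at TSSs of other genes. The strongest region of HSPA5 and of DNAJB9 is at the promoter, and HSPA5 also has a region at the TSS of GAPVD1 at 50.4 and 59.3. ATF4 has a region stronger than its TSS peak, centred just past the end of the gene, at 85.8 and 88.5. ATF6 has one in intron 14 at 58.7 and 61.5.

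The strength of the TSS peak relative to the strongest distal region thus ran from 9.61 at EDEM3 to 0.649 at ATF6. It was below 1 for ATF6, ATF4 and ERN1, or 3 of the 10 genes, and for 41.0% of all coding genes with a value. The spans differ in length, from 43.0 kb at ATF4 to 251 kb at ATF6, and a longer span holds more distal regions.

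Of the 170 regions at the 10 loci, 134 had a peak in both replicates (78.8%), against 77.1% of all regions. The other 36 were called in 1 replicate, 14 in replicate 1 and 22 in replicate 2, and the strongest of these had a fold of 8.18. Of the 134 shared regions, 19 lay at the genes' own TSSs, 21 at TSSs of other genes, 7 in exons, 34 in introns and 53 outside the gene. More than 1 kb from any TSS were 94 of them, or 70.1%, against 80.1% of all shared regions. These 94 had a median fold of 10.6, against 9.13 for all distal regions. Within 100 bp of their midpoints, none of the 94 held an estrogen response element (GGTCA and TGACC separated by 3 bases), which was found in 0.0743% of all distal regions. The core of the CTCF motif (CCA, AG and GGC, each separated by 2 bases) was found in 5 of the 94, or 5.32%, against 5.01%. The forkhead motif TGTTTAC was found in 3, or 3.19%, against 6.24%. These counts are small and no difference from the background is read from them.

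The TSS windows of the 10 genes ranged from 46.4% to 73.3% in G and C. All 10 had more CpG dinucleotides, relative to their C and G content, than the median of 0.725 over all coding genes, and 8 of the 10 had more G and C than the median of 61.3%. The exceptions were EDEM2 with 53.8% and ATF6 with 46.4%, at the percentiles 24.4 and 11.9. ERN1, with 73.3%, and EDEM1, with 72.2%, were the richest. EDEM3, at 66.7% and the percentile 71.4, did not stand out in base composition as it did in accessibility. The TSS peaks were wider than the median in both replicates for 9 of the 10 genes, with ATF6 as the exception.

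**Figure D4:**
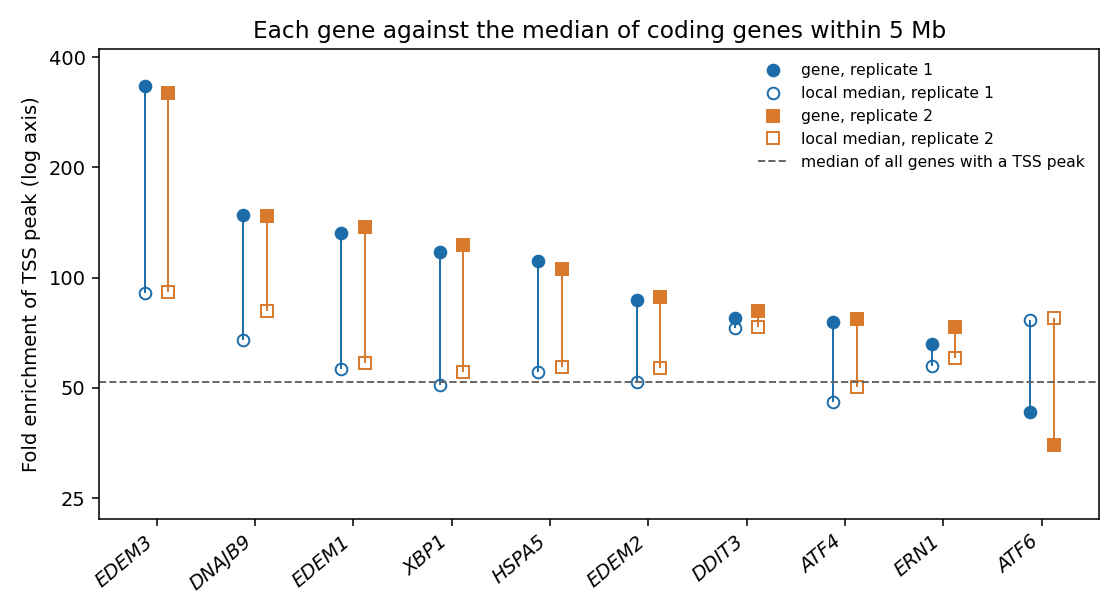
Fold enrichment of the TSS peak (vertical axis, logarithmic) of each gene (filled symbols) and the median of the coding genes within 5 Mb of it that have a TSS peak in both replicates (open symbols), with blue circles for replicate 1 and orange squares for replicate 2. The dashed line is the median of all coding genes with a TSS peak. EDEM3 lies 3.58 times above a local median of 91.1 and 91.4, and ATF6 is the only gene below its local median.

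Each gene was also set against its own neighbourhood. Only the gene itself was left out. THAP5 and PNPLA8, which share the DNAJB9 peak, stayed in, as did MBD6 and ENSG00000285133, which share the DDIT3 peak. EDEM3 was 3.58 times its local median, EDEM1 2.35 ± 0.00200, XBP1 2.27 ± 0.0527, DNAJB9 2.01 ± 0.275 and HSPA5 1.92 ± 0.107 (SD, n = 2). EDEM2 with 1.62 ± 0.0803, ATF4 with 1.59 ± 0.0896, ERN1 with 1.18 ± 0.0482 and DDIT3 with 1.08 ± 0.0299 came closer to their neighbours (SD, n = 2). The local medians of DDIT3 and DNAJB9 were 1.42 and 1.41 times that of all genes, and those of XBP1, HSPA5, ERN1 and ATF4 were between 0.906 and 1.12 times.

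The remaining genes of the pathway were read from 5 lists of 63 genes in all, none of them a member. A TSS peak in both replicates was found for 61 of the 63, against 79.3% of all protein-coding genes, with ERN2 and PSAT1 lacking one in either replicate. ERN2 encodes the form of IRE1 known from gut and airway epithelium, and PSAT1 an enzyme of serine synthesis. The median of the mean folds was 90.9, 16 of the genes were at or above the 90th percentile in both replicates, against 9.14% of all genes with a TSS peak in both, and 0 reached EDEM3. EDEM3 was already known to rank near the top, so nothing is read from the last count.

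The 18 ER chaperones and folding enzymes all had a TSS peak, with a median of 102. P4HB, a protein disulfide isomerase, was the highest with 189 and 176, and the oxidase ERO1A the lowest with 42.6 and 51.5. The 16 genes of ER-associated degradation all had one too, with a median of 87.7, between FAF2 with 169 and 144 and DERL3, a derlin of secretory cells, with 11.3 and 10.4. Of the 4 class I mannosidases related to the EDEM proteins, MAN1B1, which trims mannose in the early secretory pathway, had 147 and 136, and MAN1C1 was the lowest with 27.4 and 27.9. Their median was 50.9, close to that of all genes. EDEM3, with a mean of 326, had a stronger TSS peak than all 4 of these relatives. EDEM1, with 135, and EDEM2, with 87.8, each exceeded 3 of them. Since the set was selected on these folds, nothing is read from these counts. Among the 11 other sensors, proteases and ER-bound factors, 10 had a TSS peak, with a median of 93.0. ATF6B, the homologue of ATF6, was the highest with 163 and 142, several times the value of ATF6, and RTCB, the ligase that joins the spliced XBP1 mRNA, the lowest with 17.9 and 19.5. Of the 14 integrated stress response targets 13 had one, with a median of 77.3, from PPP1R15A with 26.2 and 22.6 to the asparagine synthetase gene ASNS with 119 and 131.

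**Figure D5:**
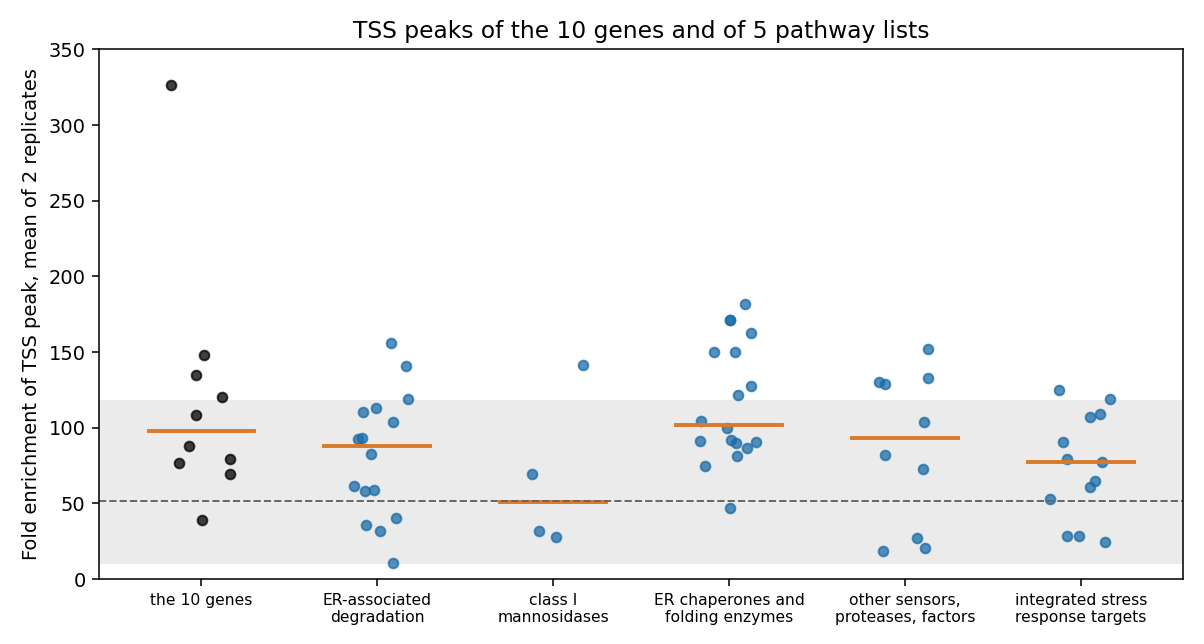
Mean fold enrichment of the TSS peak over the 2 replicates (vertical axis, linear) for the 10 genes (black) and for the genes of 5 pathway lists with a TSS peak in both replicates (blue), 1 point a gene, with the list median in orange. The dashed line and the grey band are the median and the 10% to 90% range of all coding genes with a TSS peak. EDEM3, at a mean of 326, lies above every gene of the lists, whose highest is P4HB at 182.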

How the data were processed

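ATAC-seq of CAMA-1 was available as 1 list of peaks for each of the 2 biological replicates. Per the labels, the authors trimmed reads with Trim Galore 0.6.5, aligned them to hg38 with Bowtie2 2.3.5.1 and called peaks with MACS2 2.2.6 in each replicate without pooling. How MACS2 was set, how duplicate reads were handled and whether regions were excluded is not given in the sources used here. For each peak the authors deposited a score, a fold enrichment (a ratio), and p and q each as −log10. Only the fold and the −log10 q were used as measurements. The lists give neither read counts nor summits, and the depth of the libraries is not known from them.

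Heights and the background were recovered from the step between deposited fold values. A Poisson distribution returned the deposited −log10 p within 0.01 for 100% of the 225820 and 238179 peaks for which it was computed. The tail was taken with or without the height itself, whichever came closer. The strongest peaks were left out of this check, among them the strongest TSS peaks of all members but ATF6. Intervals of heights are exact Poisson 95% intervals and cover counting error only. Peaks of the replicates that shared at least 1 bp were merged, and a region took the strongest peak of each replicate. The midpoint stood for the summit. Distal regions lay more than 1 kb from any TSS of GENCODE release 44. All 10 members matched 1 promoter each in the RefSeq table (GRCh38.p14). Motifs were exact matches on both strands. No test was made, since there is a single condition. The functions were tested on simulated data. A list of blood cell markers is not reported here. The members and lists were chosen with earlier results of these data known. Named beside the members are the highest and the lowest gene of each list, genes without a TSS peak, and genes whose TSS lies in a member's locus. Marker genes on the other side of the median of all genes from most of their list are named too. The alternatives were other distances, thresholds, measures of strength, TSSs, windows and overlaps, and the omission of each replicate. Python 3.11.15, numpy 2.4.6, pandas 2.3.3, scipy 1.17.1 and matplotlib 3.10.9 were used.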

Additional observations from a re-analysis of the deposited data

How the results depend on the processing

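No paired analysis was possible because there is only 1 condition. EDEM3 over EDEM1 was 2.93 by −log10 q, 1.94 by the sum of all peaks within 1 kb and 1.52 after division by the local median, and it lay between 2.33 and 2.51 with either replicate left out. EDEM3 over EDEM2 was 5.02 by −log10 q and 2.20 after division by the local median, and between 3.60 and 3.83 with either replicate left out. EDEM3 over its local median was 4.71 within 2 Mb and 3.75 within 10 Mb, and ATF6 over its local median was 0.424 within 10 Mb. Of the regions, 87 were shared within 5 kb of the genes and 236 within 50 kb, as the spans are shorter or longer by construction. In windows of 200 bp rather than 100 bp around the midpoints, which hold more bases, 42 rather than 22 of the 94 distal regions held CCAAT, while the share of all distal regions went from 24.1% to 42.8%. For the CTCF core the count was 9 rather than 5 (9.57% rather than 5.32%), and the share of all went from 5.01% to 6.40%. For the forkhead motif it was 9 rather than 3 (9.57% rather than 3.19%), and the share of all went from 6.24% to 9.70%. The cause of the other moves was not tested. A TSS peak was found for all 10 genes under each of the 6 alternatives tried. With 2 replicates, leaving out either cannot move a mean by more than the SD, and the recovered height and the peak at the most 5′ TSS draw on the same peaks, so these say nothing about stability. What depth limits was not tested, as the lists do not give it.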

Other observations

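Several regions in the 10 loci lie at TSSs of other genes. They were counted among the regions above, and the TSS peaks of the coding genes concerned entered the local medians. Among those at coding genes the highest was DUSP12, a phosphatase gene upstream of ATF6, with a fold of 113 in replicate 1 and 116 in replicate 2. RPS19BP1, downstream of ATF4, had 112 in both replicates, and MIEF1, upstream of ATF4, had 86.7 and 92.0. SNHG25, a host gene of small nucleolar RNAs that starts at −15793 bp from the canonical TSS of ERN1 on the opposite strand, had 85.4 and 90.7, more than the TSS peak of ERN1 itself. At GAPVD1, near HSPA5, the values were 50.4 and 59.3, below those of HSPA5.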
